A study of Homo sapiens with 12 samples.

Results

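The comparison described here is a difference of differences: HOTAIR clone minus vector control in VM-CUB1 cells, minus the same in 5637 cells, gene by gene. It used all 12 arrays of the series and 18132 genes, each represented by the mean of its probe sets with exactly 1 gene symbol. VM-CUB1 and 5637 are established human urothelial carcinoma cell lines. VM-CUB1_HOTAIR 20 and 5637_HOTAIR 4 were clones stably transfected with HOTAIR in the LZRS vector, and VM-CUB1_LV and 5637_LV carried the empty vector. All cells were grown with serum and selected with puromycin, and each group had 3 arrays, made from RNA preparations of 1 clone. The p-values therefore measure the spread between preparations and not the spread between clones. The HOTAIR effect of a line means here the HOTAIR clone minus its vector control. Within a line, an effect of HOTAIR cannot be told apart from a difference between clones.

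HOTAIR is a long noncoding RNA transcribed from the HOXC cluster. It can bind the Polycomb repressive complex and a histone demethylase complex, and it is known for altered HOX expression and for more invasive behaviour in several carcinomas. Urothelial cells are normally tied together by tight junctions and desmosomes, and they can switch on interferon and cytokine genes when they are infected or damaged. The comparison addressed which of these programmes differed between HOTAIR clone and vector the same way in both lines, in 1 line alone or in opposite directions.

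Values are log2 intensities centred on the median of each line, so that a difference of 1 is a 2-fold change and no value is a level. A gene that separated HOTAIR from vector therefore had arrays on both sides of 0, and the labelled cell type could not be checked by the levels of its markers. Replicate arrays of a group correlated across genes at r = 0.918 to 0.948 in VM-CUB1 and 0.775 to 0.848 in 5637. Over all genes the median HOTAIR effect was -0.03 in VM-CUB1 and -0.04 in 5637, the median difference was 0.01 and the median standard error (SE) of a difference was 0.10. Of 19 measured markers of fibroblasts, endothelium, leukocytes, muscle and neural cells, 3 had a difference between the lines, all of them lower in VM-CUB1, and their part in the results was not tested.

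The effect of HOTAIR differed between the lines for 7614 genes, 42% of those tested, at an adjusted p under 0.01 (limma, two-sided, Benjamini-Hochberg over all genes). It was higher in VM-CUB1 for 3973 of them (21.9%) and lower for 3641 (20.1%). Within the lines, 7536 genes (41.6%) were called in VM-CUB1 and 5430 (29.9%) in 5637. Genes are named alike here where both lines were called with the same sign, and opposite where both were called with different signs. A gene counts for 1 line alone only where it was called in that line, was not called in the other, and the difference itself was called. The share of all genes that rose in both lines was 5.56% and the share that fell in both was 5.05%. Opposite genes made up 4.09% (up in VM-CUB1, down in 5637) and 4.17% (down in VM-CUB1, up in 5637). VM-CUB1 alone accounted for 9.78% rising and 8.75% falling, and 5637 alone for 3.87% rising and 4.1% falling. These shares are the background for every list of genes described here. They cover all genes without a filter on signal, so the part of genes without expression among them could not be assessed. The difference was also called for 59.3% of cytosolic ribosomal, 61.9% of mitochondrial ribosomal and 60.7% of respiratory chain genes. A share of called differences above 42% was therefore not particular to a list.

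Among the 1923 alike genes a shared direction often came with an unequal size. The difference was called for 959 of them, and in 773 of these the larger change was in VM-CUB1. For the other 964 the difference was not called, with a median half-width of its 95% interval of 0.198. For 1451 alike genes the whole interval lay within 2-fold. A change of at least 2-fold in both lines was seen for 138 alike genes and for 102 opposite genes, and 77 of the latter fell in VM-CUB1 and rose in 5637. A stricter count of genes changed in 1 line alone asked for at least 2-fold there and a 95% interval within 1.5-fold in the other line. It held 447 rising and 481 falling genes for VM-CUB1, and 191 rising and 49 falling genes for 5637.

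**Figure D1:**
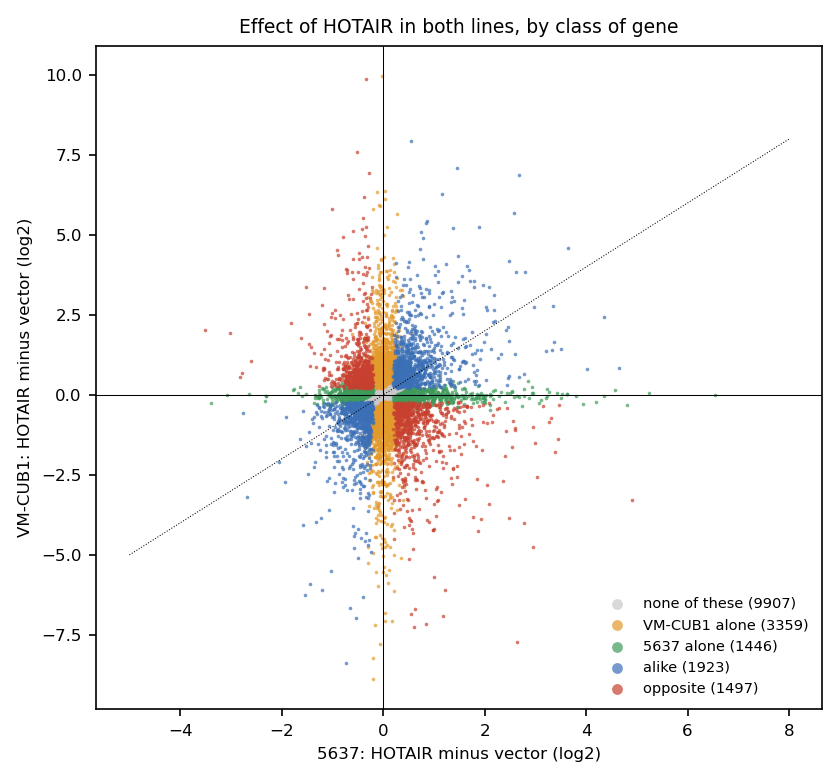
HOTAIR minus vector in VM-CUB1 (vertical axis, log2) against the same in 5637 (horizontal axis, log2) for 18132 genes, 1 point per gene, coloured by class. The dotted line marks equal effects, and the 1497 opposite genes lie in the upper left and lower right quadrants.

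ANXA10, a calcium-dependent membrane-binding annexin, rose in VM-CUB1 and fell in 5637. The VM-CUB1 arrays read 0.76, 1.36 and 1.21 with HOTAIR and -0.76, -0.81 and -1.20 with vector, and the 5637 arrays -1.59, -1.91 and -1.88 with HOTAIR and 1.59, 1.63 and 1.94 with vector. The HOTAIR and vector arrays did not overlap in either line, and their order was reversed. The effect was 2.04 ± 0.17 (SE, n = 3 arrays a group, as throughout) in VM-CUB1 and -3.52 ± 0.12 in 5637, with a difference of 5.55 ± 0.23 (adjusted p = 2.84e-10). FABP4, a fatty acid carrier, had a difference of 4.95 ± 0.12, F2R, the thrombin receptor, had 4.90 ± 0.15, and the homeobox factor DLX1 had 2.91 ± 0.14, all with the same signs as ANXA10. In the other direction stood SLC38A5, a glutamine transporter, with -4.75 ± 0.14 in VM-CUB1 and 2.96 ± 0.09 in 5637.

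The interferon-induced antiviral genes split into alike, opposite and 1 line alone. The split lay in VM-CUB1, where 18 rose and 11 fell, whereas all members called in 5637 rose. Of 40 measured members, 14 rose in both lines and 9 fell in VM-CUB1 while rising in 5637. A further 3 rose and 2 fell in VM-CUB1 alone, 6 rose in 5637 alone, 2 were called in 1 line without a called difference, and 4 were called in neither line. In 5637, 30 of the 40 rose and 0 fell. The difference was called for 28 (70%, against 42% of all genes), 11 higher and 17 lower in VM-CUB1, and the median effect was 0.21 in VM-CUB1 and 0.70 in 5637. The split rested in part on the test, since without moderation of the variances 9 rose in both and 4 were opposite, and without probe sets that may hit several genes 9 rose in both.

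IFIT3, a member of the family that binds viral RNA, rose in both lines. Its values were 1.37, 1.72 and 1.42 with HOTAIR and -1.76, -1.75 and -1.37 with vector in VM-CUB1, and 1.03, 0.97 and 1.25 with HOTAIR and -1.24, -0.97 and -1.13 with vector in 5637. Every HOTAIR array lay above every vector array of its line, and the rise in VM-CUB1 was larger by 0.93 ± 0.17 (adjusted p = 0.00044). ISG20, an exonuclease that degrades viral RNA, rose by 2.76 ± 0.09 in VM-CUB1 and 2.04 ± 0.05 in 5637, and IFIT2 rose by 5.26 ± 0.08 and 1.89 ± 0.13.

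IFIH1, the cytosolic sensor of long double-stranded RNA, moved in opposite directions. Values of -0.63, -0.60 and -0.53 with HOTAIR and 1.02, 0.53 and 0.69 with vector were measured in VM-CUB1, and of 0.44, 0.36 and 0.45 with HOTAIR and -0.47, -0.62 and -0.66 with vector in 5637. The groups were separate in each line and their order was reversed, with a difference of -2.33 ± 0.14 (adjusted p = 1.35e-08). MX1, a GTPase that traps viral nucleocapsids, had -1.73 ± 0.11 in VM-CUB1 and 1.95 ± 0.09 in 5637, and SAMD9L, an antiviral and antiproliferative factor, had -1.03 ± 0.09 and 1.5 ± 0.06.

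BST2, or tetherin, holds budding virus particles at the cell surface, and its rise belonged to VM-CUB1 alone. In VM-CUB1 it was at 3.03, 3.04 and 3.09 with HOTAIR and at -3.09, -3.08 and -3.04 with vector, and in 5637 at 0.04, 0.03 and -0.05 with HOTAIR and at -0.10, -0.01 and 0.00 with vector. The VM-CUB1 groups were far apart while the 5637 groups overlapped, and the difference was 6.09 ± 0.07 (adjusted p = 1.16e-14). OASL, an oligoadenylate synthetase-like protein, had 3.69 ± 0.09 in VM-CUB1 against 0.07 ± 0.05 in 5637. IFI27, a mitochondrial protein, fell in VM-CUB1 alone, with -1.59 ± 0.08 against -0.01 ± 0.08.

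TRIM22, an antiviral ubiquitin ligase, rose in 5637 alone. The VM-CUB1 arrays read 0.04, -0.02 and -0.01 with HOTAIR and 0.08, 0.02 and 0.02 with vector, and the 5637 arrays 2.23, 2.04 and 2.20 with HOTAIR and -2.20, -2.05 and -2.36 with vector. The 5637 groups were far apart while the VM-CUB1 groups overlapped, and the difference was -4.39 ± 0.11 (adjusted p = 1.89e-12). IFITM1, which blocks viral entry, had 0.25 ± 0.07 in VM-CUB1 and 2.93 ± 0.17 in 5637. PARP14, an ADP-ribosyltransferase, had 0.18 ± 0.08 and 1.56 ± 0.08, and without the first vector array of VM-CUB1 it was also called there, so that it then counted as alike.

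The promoters of 1 gene of each kind are shown because all of them hold the same short element while the genes responded in different ways. Each is the 250 bases before a RefSeq start (GRCh38.p14), 5′ to 3′ on the gene's strand. Where several starts are listed, as for IFIT3, the first whose stretch holds the element was taken. Capitals mark GAAANNGAA or its reverse complement, the core of the interferon-stimulated response element.
IFIT3, rose in both lines, chr10:89327747-89327996, plus strand: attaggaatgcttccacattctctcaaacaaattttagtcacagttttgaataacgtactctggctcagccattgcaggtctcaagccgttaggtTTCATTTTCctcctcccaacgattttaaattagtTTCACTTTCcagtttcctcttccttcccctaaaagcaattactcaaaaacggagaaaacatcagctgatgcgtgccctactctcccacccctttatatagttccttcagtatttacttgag
IFIH1, opposite, chr2:162318685-162318934, minus strand: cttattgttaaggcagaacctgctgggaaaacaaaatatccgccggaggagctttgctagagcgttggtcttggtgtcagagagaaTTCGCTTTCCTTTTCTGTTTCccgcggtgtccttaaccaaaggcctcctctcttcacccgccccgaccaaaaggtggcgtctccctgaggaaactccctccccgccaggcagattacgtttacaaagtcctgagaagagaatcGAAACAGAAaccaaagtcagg
BST2, VM-CUB1 alone, chr19:17405631-17405880, minus strand: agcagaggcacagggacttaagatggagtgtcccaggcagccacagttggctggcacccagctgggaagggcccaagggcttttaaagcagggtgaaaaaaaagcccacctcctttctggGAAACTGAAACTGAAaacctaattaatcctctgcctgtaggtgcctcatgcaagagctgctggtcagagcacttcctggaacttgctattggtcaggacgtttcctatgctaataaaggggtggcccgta
PARP14, 5637 alone, chr3:122680589-122680838, plus strand: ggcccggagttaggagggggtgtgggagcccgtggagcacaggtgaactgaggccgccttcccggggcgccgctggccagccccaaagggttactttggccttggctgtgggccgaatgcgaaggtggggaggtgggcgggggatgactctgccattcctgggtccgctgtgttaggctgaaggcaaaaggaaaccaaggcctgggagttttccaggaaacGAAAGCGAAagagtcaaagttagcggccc
The core was found 2 times in IFIT3, 4 times in IFIH1, 2 times in BST2 and 1 time in PARP14, counting overlapping copies each. RefSeq promoters of 300 bases (250 before to 50 after the start) were matched for 14425 of the genes tested. For each motif here, a gene counted where any of its listed promoters held it. The core was found on either strand in 9.24% of the matched genes. It was in 24 of 32 matched antiviral genes (75%, exact 95% interval 56.6 to 88.5%). By kind of response it was in 10 of 12 that rose in both lines, 6 of 9 that were opposite, the 1 that rose and the 1 that fell in VM-CUB1 alone, 2 of 4 that rose in 5637 alone and 3 of 3 called in neither. A match to these letters describes the sequence and says nothing of a factor that binds there.

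Where the HOTAIR effect on genes that make and load MHC class I peptides differed between the lines, it was mostly lower in VM-CUB1. Of 25 measured genes of class I presentation and guanylate-binding proteins, 10 fell in VM-CUB1 and rose in 5637 (40%, against 4.17% of all genes), 6 rose in both, 1 rose and 1 fell in VM-CUB1 alone, and 4 rose in 5637 alone. The difference was called for 21 of the 25, of which 18 were lower in VM-CUB1, and the median difference was -1.02, or -0.47 without probe sets that may hit several genes. Guanylate-binding proteins, interferon-induced GTPases that attack intracellular pathogens, were among those that rose in both. GBP1 rose by 1.44 ± 0.10 in VM-CUB1 and 3.51 ± 0.06 in 5637, and GBP2 by 1.66 ± 0.11 and 3.38 ± 0.14, so that both rose more in 5637 (adjusted p of the difference 1.39e-08 and 6.2e-06). GBP3 rose more in VM-CUB1, by 5.23 ± 0.09 against 1.37 ± 0.11 (adjusted p of the difference 1.87e-10). With quantile normalization within each line the difference was -1.25 for GBP1 and -0.84 for GBP2.

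TAP1 is a subunit of the transporter that carries peptides into the endoplasmic reticulum. Its values were -0.58, -0.56 and -0.45 with HOTAIR and 0.82, 0.48 and 0.47 with vector in VM-CUB1, and 0.60, 0.40 and 0.59 with HOTAIR and -0.42, -0.41 and -0.53 with vector in 5637. The groups did not overlap in either line, and the difference was -2.10 ± 0.13 (adjusted p = 1.52e-08). Its partner TAP2 had -1.11 ± 0.06 and 0.84 ± 0.06, and the immunoproteasome subunit PSMB9 had -1.83 ± 0.15 and 1.53 ± 0.08. PSME2, a subunit of the proteasome activator, rose in 5637 alone, with 1.14 ± 0.06 against -0.01 ± 0.05 in VM-CUB1. IRF1, a transcription factor of these genes, did the same, with 1.01 ± 0.07 against -0.09 ± 0.06.

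The TAP1 promoter is shown because TAP1 and PSMB9 start on opposite strands next to each other and both were opposite. It is the 250 bases before a listed start (RefSeq, GRCh38.p14), chosen in the same way, with the same core in capitals.
TAP1, opposite, chr6:32853705-32853954, minus strand: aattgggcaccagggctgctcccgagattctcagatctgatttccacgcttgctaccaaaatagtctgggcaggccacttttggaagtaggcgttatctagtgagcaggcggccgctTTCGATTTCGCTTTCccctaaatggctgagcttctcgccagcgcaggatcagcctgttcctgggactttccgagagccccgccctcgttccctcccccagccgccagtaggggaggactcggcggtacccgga
The core was in 15 of 19 matched genes of this list (78.9%, exact 95% interval 54.4 to 93.9%), and in 52.6% of them when only the 250 bases before the start were searched.

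**Figure D2:**
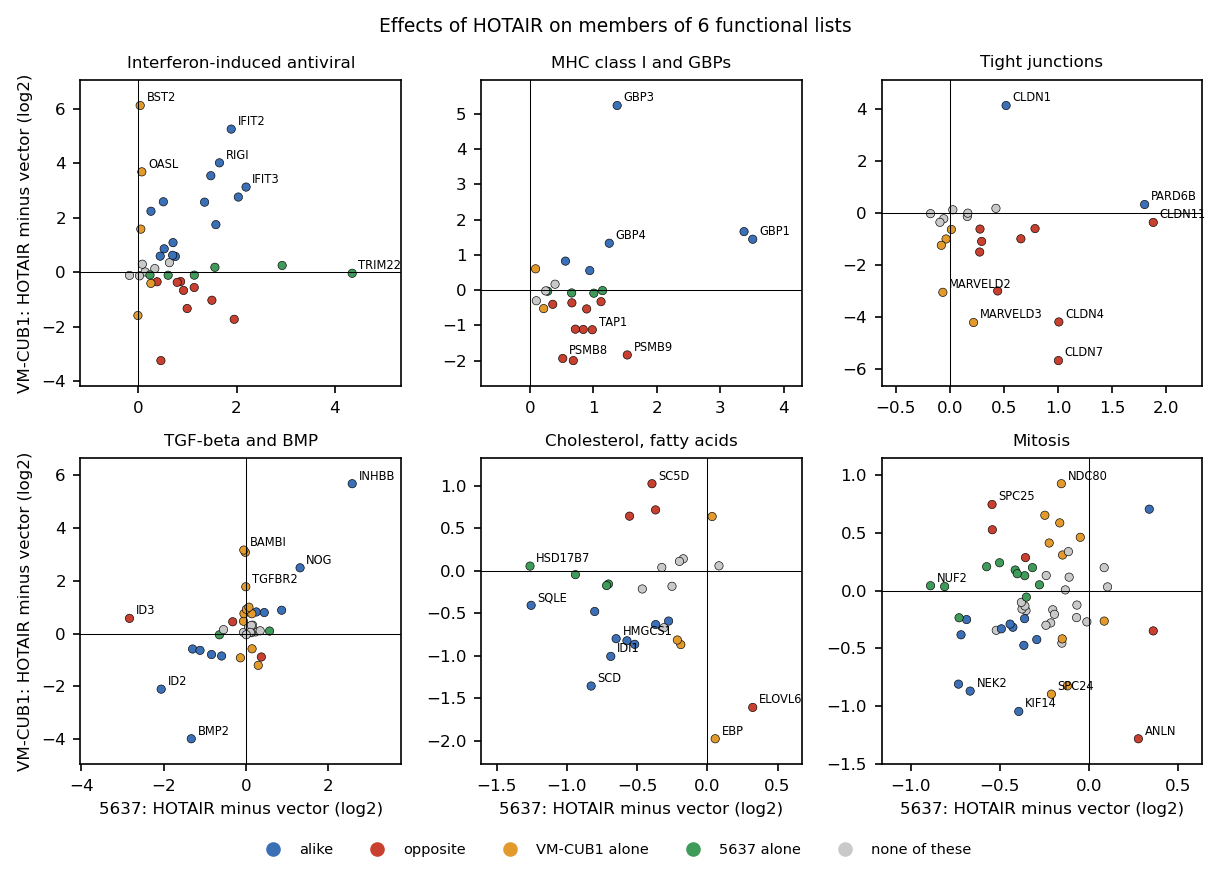
HOTAIR minus vector in VM-CUB1 (vertical axis, log2) against 5637 (horizontal axis, log2) for the measured members of 6 lists, 1 point per gene, coloured by class, with some members named. Antiviral genes lie on both sides of the horizontal line at 0 and, where called in 5637, to the right, opposite tight junction genes lie in the lower right, and 9 cholesterol genes lie in the lower left as alike.

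Of 18 measured subunits and feedback genes of NF-kappaB, a transcription factor of inflammation, 6 fell in VM-CUB1 and rose in 5637, 2 rose in both, 1 fell in both, 1 rose and 3 fell in VM-CUB1 alone and 1 rose in 5637 alone, and the median difference was -0.95. NFKBIA, the inhibitor that keeps NF-kappaB in the cytoplasm, had -1.27 ± 0.11 in VM-CUB1 and 1.04 ± 0.07 in 5637. TNIP1, a partner of the ubiquitin-editing inhibitor of the pathway, had -1.33 ± 0.06 and 0.96 ± 0.06, and the kinase IKBKE had -0.60 ± 0.06 and 0.84 ± 0.06. The subunits RELB and NFKB1 fell in VM-CUB1 alone, with -1.22 ± 0.07 and -1.06 ± 0.07 there against 0.17 ± 0.07 and 0.09 ± 0.05 in 5637. The subunit REL fell in both lines, with -1.09 ± 0.05 and -1.0 ± 0.06, with a 95% interval of the difference from -0.27 to 0.09. CYLD, a deubiquitinase that damps the pathway, rose in both by 0.79 ± 0.06 and 0.71 ± 0.05, with an interval from -0.09 to 0.24.

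Death ligands and receptors included 7 opposite genes of 30 measured in the TNF superfamily, all lower in VM-CUB1 and higher in 5637. A further 1 rose in both, 6 rose in VM-CUB1 alone and 5 rose in 5637 alone. TNFSF10, the apoptosis-inducing ligand TRAIL, had -1.09 ± 0.17 and 2.61 ± 0.19. Its receptors TNFRSF10A and TNFRSF10B had -1.59 ± 0.09 and -0.68 ± 0.06 in VM-CUB1 against 0.76 ± 0.13 and 0.60 ± 0.05 in 5637. CD40, a costimulatory receptor, rose in VM-CUB1 alone (6.38 ± 0.14 against 0.03 ± 0.10), and the neurotrophin receptor NGFR and the ligand TNFSF18 rose in 5637 alone (1.86 ± 0.10 and 1.74 ± 0.06). The opposite count was 4 with a replicate block within each line and 3 without moderation, where TNFSF10 and TNFRSF10A were no longer called in both.

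Of 19 measured genes of the inflammasome, the complex that activates caspase-1, 5 were opposite, all lower in VM-CUB1 and higher in 5637, 2 rose and 1 fell in both, 2 rose and 4 fell in VM-CUB1 alone, and 1 rose and 1 fell in 5637 alone. CARD16, a decoy that binds caspase-1, had -0.35 ± 0.06 and 1.58 ± 0.10. The pore former GSDMD fell in both, with -0.60 ± 0.07 and -0.72 ± 0.07, with an interval of the difference from -0.10 to 0.35. Its relative GSDME rose by 2.78 ± 0.12 in VM-CUB1 and had 0.19 ± 0.05 in 5637, where it was called with array weights or without the first vector array. NLRP2, a NOD-like receptor, fell in VM-CUB1 alone (-4.45 ± 0.06 against -0.14 ± 0.06).

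Secreted inflammatory proteins included many genes that rose in 5637 alone. Of 20 chemokines, 6 did so, against 3.87% of all genes, 3 rose in both, 2 were opposite and 0 changed in VM-CUB1 alone. CCL2, which draws monocytes, had 6.53 ± 0.13 in 5637 and 0.01 ± 0.06 in VM-CUB1, and CCL20, which draws dendritic and T cells, had 2.63 ± 0.06 and -0.03 ± 0.13. The neutrophil attractants of the CXCL family lie close together in the genome and went separate ways. CXCL8, CXCL6 and CXCL1 rose in both, with 6.88 ± 0.10, 2.79 ± 0.07 and 3.37 ± 0.06 in VM-CUB1 and 2.69 ± 0.06, 0.68 ± 0.07 and 2.09 ± 0.06 in 5637. CXCL2 was opposite. Values of -0.91, -1.01 and -0.86 with HOTAIR and 0.86, 1.01 and 1.06 with vector were measured in VM-CUB1, and of 1.13, 1.19 and 1.26 with HOTAIR and -1.14, -1.20 and -1.26 with vector in 5637. Its groups were separate in each line and their order was reversed, with a difference of -4.30 ± 0.09 (adjusted p = 7.42e-13). CXCL5 was opposite as well (-3.82 ± 0.20 and 1.76 ± 0.08), and CXCL3 rose in 5637 alone (3.07 ± 0.10 against -0.25 ± 0.08).

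Of 22 acute phase, complement and antimicrobial genes, 7 rose in 5637 alone, 2 rose and 1 fell in both, 2 were opposite, and 2 rose and 1 fell in VM-CUB1 alone. SAA1, a serum amyloid A protein of the acute phase, was one of the former. In VM-CUB1 it was at 0.07, 0.29 and -0.17 with HOTAIR and at 0.13, -0.07 and -0.12 with vector, and in 5637 at 1.61, 1.46 and 1.51 with HOTAIR and at -1.46, -1.79 and -1.94 with vector. The VM-CUB1 groups overlapped and the 5637 groups did not, and the difference was -3.18 ± 0.18 (adjusted p = 7.75e-09). SAA2 is a near-identical copy, with 3.42 ± 0.17 in 5637, and their probe sets may share signal. The elastase inhibitor PI3 rose by 3.63 ± 0.08 in 5637 against 0.02 ± 0.08 in VM-CUB1, and LCN2, which starves bacteria of iron, was opposite (-2.57 ± 0.16 and 3.04 ± 0.19). PTX3, a pattern recognition protein, rose in both but more in VM-CUB1 (5.43 ± 0.11 against 0.86 ± 0.07). Among the S100 proteins, the antimicrobial S100A7, S100A8 and S100A9 rose in 5637 alone, by 3.95 ± 0.16, 4.19 ± 0.12 and 4.57 ± 0.07, with -0.28 ± 0.11, -0.22 ± 0.09 and 0.17 ± 0.21 in VM-CUB1.

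Among 23 interleukins and inflammatory growth factors, 6 rose in 5637 alone, 2 rose and 4 fell in VM-CUB1 with the opposite sign in 5637, 3 rose in both and 0 changed in VM-CUB1 alone. IL36G, an epithelial alarm cytokine, had 3.53 ± 0.14 in 5637 and 0.04 ± 0.07 in VM-CUB1. IL1A, the alarm cytokine of the IL-1 family, had -7.25 ± 0.22 in VM-CUB1 and 0.60 ± 0.05 in 5637, and IL7R, the receptor for IL-7, had 4.53 ± 0.11 and -0.92 ± 0.06. LIF and IL11, cytokines that act through the shared receptor gp130, rose in both, by 1.77 ± 0.07 and 1.80 ± 0.08 in VM-CUB1 and 0.56 ± 0.07 and 0.77 ± 0.07 in 5637. The rise of IL1A in 5637 was not called in 1 fit of all 12 arrays or with a replicate block over all arrays.

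Receptors and signal carriers of the gp130 cytokines held many alike genes. Of 30 measured receptors, STATs and SOCS feedback genes, 9 rose in both (against 5.56% of all genes), 1 fell in both, 3 rose and 2 fell in VM-CUB1 with the opposite sign in 5637, 3 rose and 2 fell in VM-CUB1 alone and 5 rose in 5637 alone. Their median effect was 0.28 in VM-CUB1 and 0.32 in 5637, and the median difference was 0.04. The opposite members included the kinase TYK2 (1.0 ± 0.07 and -0.51 ± 0.05) and the feedback inhibitor SOCS5 (0.75 ± 0.06 and -0.73 ± 0.05), while the inhibitor SOCS1 rose in 5637 alone (1.16 ± 0.09 against -0.07 ± 0.08). Without moderation the count that rose in both was 5.

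Junction genes carried a one-sided difference. Tight junctions seal the space between epithelial cells, and of 23 measured genes 9 fell in VM-CUB1 and rose in 5637 (against 4.17% of all genes), 5 fell in VM-CUB1 alone, 2 rose in both and 0 rose in VM-CUB1 alone. The difference was lower in VM-CUB1 for 15 and higher for 1. CLDN4, a sealing claudin, was opposite. The VM-CUB1 arrays read -2.09, -2.23 and -2.10 with HOTAIR and 2.35, 1.95 and 1.85 with vector, and the 5637 arrays 0.48, 0.51 and 0.49 with HOTAIR and -0.62, -0.47 and -0.46 with vector. The groups were separate in each line and in reversed order, and the fall in VM-CUB1 was 18.2-fold and the rise in 5637 2.01-fold. CLDN7, another claudin, had -5.68 ± 0.19 and 1.0 ± 0.07, and occludin (OCLN), a strand protein, had -0.98 ± 0.11 and 0.66 ± 0.10, the latter no longer called without moderation. MARVELD2, or tricellulin, which closes the corners where cells meet, fell in VM-CUB1 alone. Its values were -1.65, -1.42 and -1.61 with HOTAIR and 1.44, 1.42 and 1.60 with vector in VM-CUB1, and -0.07, -0.05 and 0.02 with HOTAIR and 0.00, -0.01 and 0.11 with vector in 5637. Only the VM-CUB1 groups were separate, and the difference was -2.98 ± 0.10 (adjusted p = 3.94e-11). CLDN1 went against the list and rose in both, by 4.15 ± 0.09 and 0.52 ± 0.05.

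The CLDN7 promoter is shown because it holds the E-box CACCTG, a recognition sequence of the ZEB and SNAI repressors, more than once. It is the 250 bases before the start of a listed transcript (RefSeq, GRCh38.p14), the first whose stretch holds the E-box. Capitals mark CACCTG or its reverse complement.
CLDN7, opposite, chr17:7262479-7262728, minus strand: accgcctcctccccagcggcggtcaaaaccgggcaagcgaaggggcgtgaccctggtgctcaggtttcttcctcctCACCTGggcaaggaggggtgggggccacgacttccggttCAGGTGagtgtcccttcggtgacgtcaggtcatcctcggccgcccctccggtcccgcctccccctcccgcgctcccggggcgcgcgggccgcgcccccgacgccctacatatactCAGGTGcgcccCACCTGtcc
The letters occur 4 times in this stretch. In promoters of 300 bases they were in 9 of 17 matched tight junction genes (52.9%), 8 of 16 desmosome genes (50%) and 10 of 17 genes of epithelial adhesion (58.8%), 6 of 14 epithelial transcription and splicing factors (42.9%) and 2 of 6 epithelial keratins (33.3%), against 24.7% of all genes. The exact 95% intervals were 27.8 to 77% for tight junctions and 32.9 to 81.6% for adhesion. Those of desmosomes (24.7 to 75.3%), factors (17.7 to 71.1%) and keratins (4.33 to 77.7%) reached the share of all genes. In the 250 bases before the start the share was 41.2% for tight junctions, against 21.4% of all genes. There it was 50% for desmosomes, 58.8% for adhesion, 35.7% for factors and 16.7% for keratins, and no intervals were computed. Within the tight junction list, in 300 bases, the letters were in 3 of 7 opposite genes, 2 of 4 that fell in VM-CUB1 alone and 4 of 4 called in neither line.

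Genes of desmosomes, the spot welds between epithelial cells, fell in VM-CUB1 where they were called there. Of 23 measured desmosome and cornified envelope genes, 8 fell in VM-CUB1 alone, 5 were opposite, 1 rose in 5637 alone and 0 were alike, and all 14 called differences were lower in VM-CUB1. The cadherin DSG2 had -4.66 ± 0.06 against -0.05 ± 0.05 in 5637, the cadherin DSC3 -3.82 ± 0.06 against 0.04 ± 0.05, and plakoglobin (JUP), which links them to keratin, -3.16 ± 0.06 against 0.04 ± 0.06. Periplakin (PPL) was opposite (-3.43 ± 0.07 and 1.5 ± 0.07), and so were the envelope precursor SPRR1B (-3.86 ± 0.05 and 1.93 ± 0.08) and the cadherin DSC2 (-3.90 ± 0.06 and 0.53 ± 0.05).

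Of 29 genes of epithelial adhesion and membrane proteases, 8 were opposite, 5 fell in VM-CUB1 alone, 6 rose in 5637 alone and 1 fell in both, and the difference was lower in VM-CUB1 for 20 and higher for 0. E-cadherin (CDH1), the core of adherens junctions, had -3.79 ± 0.10 and 1.04 ± 0.07. The protease inhibitor SPINT1 had -2.10 ± 0.08 and 0.70 ± 0.07, and the protease prostasin (PRSS8) had -0.80 ± 0.07 and 0.82 ± 0.06. The adhesion molecule EPCAM fell in VM-CUB1 alone (-8.21 ± 0.08 against -0.21 ± 0.07), and the proteases TMPRSS2 and KLK10 rose in 5637 alone (2.12 ± 0.08 and 2.10 ± 0.11). RAB25, a small GTPase of epithelial transport, fell in both (-5.10 ± 0.23 and -0.49 ± 0.08), though its fall in 5637 was not called in 1 fit of all arrays, with a replicate block over all arrays or without moderation.

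Most called transcription factors of epithelial-mesenchymal transition, some of which repress junction genes, changed in VM-CUB1 alone. Of 14 measured factors, 5 rose and 1 fell in VM-CUB1 alone, 2 fell in both and 2 were opposite, and 0 changed in 5637 alone. In VM-CUB1 6 of the 14 rose and 4 fell, and the median difference was 0.06. ZEB1 had 4.25 ± 0.09 in VM-CUB1 and -0.05 ± 0.06 in 5637, ZEB2 1.83 ± 0.07 and -0.15 ± 0.07, and SOX4 2.40 ± 0.07 and 0.11 ± 0.05. SNAI2 was lower with HOTAIR in both lines. It was at -1.25, -1.19 and -1.24 against 1.19, 1.21 and 1.29 with vector in VM-CUB1. In 5637 SNAI2 was at -0.78, -0.67 and -0.79 against 0.67, 0.73 and 0.82. TWIST1 was lower with HOTAIR in VM-CUB1, at -0.98, -0.97 and -0.50 against 1.43, 0.50 and 1.20 with vector. In 5637 the order was reversed, with TWIST1 at 0.11, 0.20 and 0.11 against -0.11, -0.13 and -0.11. TCF4, a helix-loop-helix factor, was opposite (2.50 ± 0.07 and -0.86 ± 0.06). Of 24 epithelial transcription and splicing factors, 5 fell and 1 rose in VM-CUB1 alone, 3 rose and 2 fell in both, 4 were opposite and 2 rose in 5637 alone. ESRP2, which directs epithelial splicing, and OVOL2, which represses ZEB1, fell in VM-CUB1 alone (-4.93 ± 0.08 and -3.51 ± 0.08), although ESRP2 was also called in 5637 with array weights. The urothelial factors PPARG (4.95 ± 0.06 and -0.79 ± 0.05) and GATA3 (3.04 ± 0.07 and -0.26 ± 0.05) were opposite in the other direction, FOXA1, their partner in luminal differentiation, rose in both (4.25 ± 0.14 and 0.78 ± 0.09), and KLF5 fell in both (-1.99 ± 0.07 and -0.60 ± 0.05). The calls in 5637 of GATA3, without any 1 of 4 of that line's arrays or with a replicate block within each line, and of FOXA1, without moderation, were lost.

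**Figure D3:**
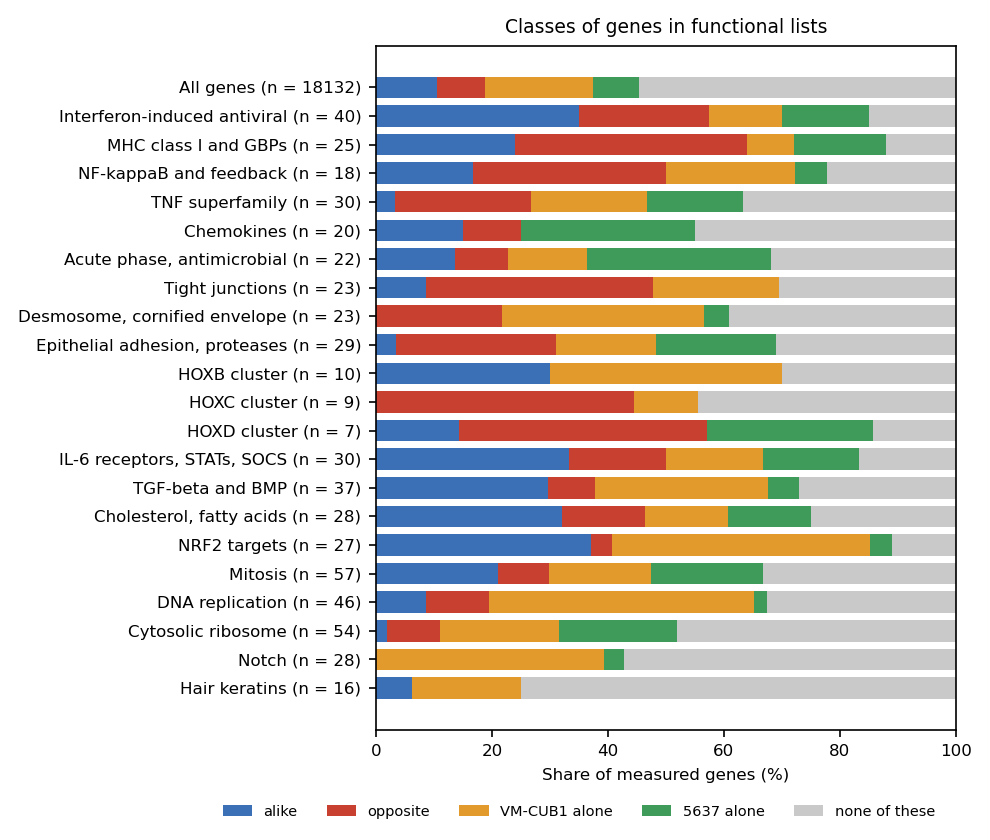
Share of measured genes in each class (horizontal axis, percent) for all 18132 genes and for 21 lists, 1 bar per list with its number of measured genes. The opposite band covers 40% of the MHC class I list, and the Notch, HOXB and hair keratin bars have none.

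The HOX clusters hold transcription factors that pattern the body axis, and their members were classed differently by cluster. In HOXB, 3 of 10 genes rose in both lines, 4 rose in VM-CUB1 alone and 0 were opposite. HOXB8 rose by 3.73 ± 0.09 and 1.55 ± 0.13, HOXB2 rose more in 5637 (0.81 ± 0.08 and 1.5 ± 0.06), and HOXB6 rose in VM-CUB1 alone (2.88 ± 0.10 against -0.11 ± 0.07). In HOXC, the cluster of HOTAIR, 4 of 9 genes rose in VM-CUB1 and fell in 5637 and 1 rose in VM-CUB1 alone. HOXC4 was one of them. Values of 1.68, 1.88 and 1.86 with HOTAIR and -1.68, -2.01 and -2.34 with vector were measured in VM-CUB1, and of -0.22, -0.30 and -0.55 with HOTAIR and 0.31, 0.22 and 0.51 with vector in 5637. Its groups were separate in each line, and the difference was 4.53 ± 0.20 (adjusted p = 7.03e-10). The falls in 5637 were smaller than the rises in VM-CUB1, with -0.37 ± 0.06 for HOXC8 and -0.40 ± 0.07 for HOXC9. The opposite count was 2 in 1 fit of all arrays and 0 without moderation.

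In HOXD, 3 of 7 measured genes were opposite in the same direction as in HOXC, 1 fell in both, and 1 rose and 1 fell in 5637 alone. HOXD4, HOXD8 and HOXD9 rose by 3.78 ± 0.19, 3.00 ± 0.09 and 1.75 ± 0.09 in VM-CUB1 and had -0.40 ± 0.07, -0.67 ± 0.08 and -0.86 ± 0.12 in 5637, falls that were not called without moderation. HOXD10, known as a target of HOTAIR in breast cancer cells, fell in 5637 alone, with -0.80 ± 0.08 against -0.19 ± 0.09 in VM-CUB1 (adjusted p of the difference 0.00086). Polycomb and partner complexes of HOTAIR had 30 measured genes, of which 4 rose and 1 fell in both, 4 were opposite, 3 changed in VM-CUB1 alone and 3 fell in 5637 alone, and 46.7% had a called difference, against 42% of all genes. The methyltransferase EZH2 had -0.29 ± 0.05 in 5637 and 0.11 ± 0.06 in VM-CUB1, and its call in 5637 was lost without the second HOTAIR array there. KDM6A, a histone demethylase, was further apart and opposite. It was at -1.34, -1.37 and -1.41 with HOTAIR and 1.47, 1.34 and 1.45 with vector in VM-CUB1. In 5637 KDM6A was at 0.15, 0.16 and 0.16 against -0.10, -0.33 and -0.47, a rise not called without moderation. PHC3 fell in VM-CUB1 alone, at -0.63, -0.76 and -0.70 against 0.60, 0.64 and 0.74. The deacetylase HDAC2 rose in both by 0.63 ± 0.07 and 0.62 ± 0.07, with an interval of the difference from -0.22 to 0.24.

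The BMP pathway induces ID proteins, which block helix-loop-helix factors, and ID2 fell in both lines. In VM-CUB1 it was at -0.92, -1.19 and -1.25 with HOTAIR and at 0.88, 1.01 and 1.07 with vector, and in 5637 at -1.02, -1.03 and -1.10 with HOTAIR and at 1.01, 0.97 and 1.04 with vector. All HOTAIR arrays were below all vector arrays in both lines, by 4.3-fold and 4.16-fold, and the difference was -0.05 ± 0.11, with a 95% interval from -0.29 to 0.20. With quantile normalization within each line ID2 still fell in both, but the difference was 0.83 and was called. Its relative ID3 was opposite, with 0.57 ± 0.09 and -2.83 ± 0.05, although its rise in VM-CUB1 was not called without moderation. Of 37 measured TGF-beta and BMP genes, 5 rose and 6 fell in both, 3 were opposite, 8 rose and 3 fell in VM-CUB1 alone, and 1 rose and 1 fell in 5637 alone. INHBB, an activin subunit, rose in both (5.67 ± 0.19 and 2.58 ± 0.07) and the ligand BMP2 fell in both (-3.98 ± 0.06 and -1.33 ± 0.06). The ligand BMP4, the decoy receptor BAMBI and the receptor TGFBR2 rose in VM-CUB1 alone (3.07 ± 0.23, 3.16 ± 0.15 and 1.77 ± 0.10).

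Lipid synthesis held genes that were lower with HOTAIR in both lines. Of 28 measured genes of cholesterol and fatty acid synthesis, 9 fell in both (against 5.05% of all genes), 0 rose in both, 4 were opposite, 1 rose and 3 fell in VM-CUB1 alone and 4 fell in 5637 alone, with median effects of -0.31 in VM-CUB1 and -0.38 in 5637. HMGCS1, which makes the substrate of the rate-limiting step of cholesterol synthesis, fell in both. The VM-CUB1 arrays read -0.31, -0.34 and -0.36 with HOTAIR and 0.29, 0.57 and 0.53 with vector, and the 5637 arrays -0.28, -0.27 and -0.24 with HOTAIR and 0.62, 0.26 and 0.27 with vector. The groups were separate and ordered alike in both lines, and the difference was -0.15 ± 0.13, with an interval from -0.43 to 0.13. SCD, the desaturase of fatty acids, had -1.36 ± 0.06 and -0.83 ± 0.06, and IDI1, the isomerase of the isoprenoid unit, had -1.01 ± 0.07 and -0.69 ± 0.06. Other steps broke the pattern. SC5D and PMVK rose in VM-CUB1 (1.03 ± 0.06 and 0.64 ± 0.07) and fell in 5637 (-0.39 ± 0.07 and -0.55 ± 0.05), EBP fell in VM-CUB1 alone (-1.98 ± 0.05) and HSD17B7 in 5637 alone (-1.26 ± 0.08). Without moderation the count that fell in both was 5, and HMGCS1 was not among them, nor was SC5D called in 5637.

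NRF2 targets handle oxidants and foreign compounds, and many fell in both lines or in VM-CUB1 alone. Of 27 measured, 8 fell in both, 10 fell in VM-CUB1 alone, 2 rose in both, 2 rose in VM-CUB1 alone, 1 fell in 5637 alone and 1 was opposite. The peroxidase GPX2 had -5.91 ± 0.13 and -1.43 ± 0.17, the latter not called without moderation, and malic enzyme (ME1) had -1.78 ± 0.07 and -1.13 ± 0.07. The aldehyde dehydrogenase ALDH3A1 fell in VM-CUB1 alone (-6.11 ± 0.35 against 0.21 ± 0.09), and so did the conjugate pump ABCC3 (-2.17 ± 0.12 against -0.17 ± 0.06). AKR1C1, a ketosteroid reductase, had -4.75 ± 0.09 in VM-CUB1 and -0.30 ± 0.22 in 5637, where it was called once the first vector array was left out.

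Amino acid transport and stress response genes had 7 of 32 members that rose in both, 4 that fell in both, 4 opposite, 1 rising and 4 falling in VM-CUB1 alone and 2 rising in 5637 alone. The secreted stress factors STC2 and GDF15 rose in both, STC2 more in VM-CUB1 (4.11 ± 0.09 and 1.24 ± 0.07) and GDF15 with 1.12 ± 0.07 in VM-CUB1 and 1.92 ± 0.14 in 5637. The difference of GDF15 was not called with the median of probe sets (-0.69) or with quantile normalization (-0.37). Asparagine synthetase (ASNS) and the glutamine transporter SLC1A5 were opposite, with -1.0 ± 0.05 and -0.53 ± 0.05 in VM-CUB1 and 0.80 ± 0.05 and 0.38 ± 0.05 in 5637. Of 33 glycolysis and hypoxia genes, 5 were alike and 4 opposite (15.2% and 12.1%, against 10.6% and 8.26% of all genes). The oxygen-regulated transcription factors differed by line, with EPAS1 rising in VM-CUB1 alone (1.89 ± 0.07 against -0.18 ± 0.07) and HIF1A in 5637 alone (0.93 ± 0.05 against -0.01 ± 0.06). VEGFA, the vascular growth factor, was opposite with near-equal sizes, -1.01 ± 0.05 and 1.04 ± 0.05.

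Apoptosis regulators gave both patterns. Of 28 measured BCL2 family members and caspases, 6 rose in both, 3 were opposite, 1 rose and 4 fell in VM-CUB1 alone, and 3 rose and 1 fell in 5637 alone. The death activators PMAIP1 and BBC3 rose in both (3.30 ± 0.06 and 0.45 ± 0.06 in VM-CUB1, 0.85 ± 0.05 and 1.05 ± 0.06 in 5637), and BIK, of the same kind, was opposite (-2.67 ± 0.13 and 0.67 ± 0.07). The survival protein BCL2 rose in VM-CUB1 alone (1.20 ± 0.07 against -0.15 ± 0.05), and its relative BCL2L1 and the caspase-8 inhibitor CFLAR rose in 5637 alone (0.61 ± 0.06 and 1.02 ± 0.06).

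Genes of mitosis fell in both lines or in 5637 alone more often than the background, whereas several genes of DNA replication rose and others fell in VM-CUB1 alone. Of 57 measured mitosis genes, 11 fell in both (against 5.05% of all genes), 1 rose in both, 11 fell in 5637 alone (against 4.1%), 6 rose and 4 fell in VM-CUB1 alone, and 5 were opposite. The difference was higher in VM-CUB1 for 24 and lower for 7. CENPF and NEK2, of the kinetochore and centrosome, fell in both (-0.81 ± 0.08 and -0.87 ± 0.06 in VM-CUB1, -0.73 ± 0.09 and -0.67 ± 0.06 in 5637), CENPF only with moderated variances. NUF2 belongs to the complex that grips the spindle, and it fell in 5637 alone. Its values were 0.10, 0.08 and -0.10 with HOTAIR and 0.03, -0.03 and -0.05 with vector in VM-CUB1, and -0.41, -0.45 and -0.36 with HOTAIR and 0.67, 0.41 and 0.36 with vector in 5637. Only the 5637 groups were separate, with a difference of 0.93 ± 0.11 (adjusted p = 1.09e-05). Its partner NDC80 rose in VM-CUB1 alone (0.93 ± 0.05 against -0.16 ± 0.06), and another partner, SPC25, was opposite (0.75 ± 0.06 and -0.54 ± 0.05). Without the first HOTAIR array of VM-CUB1 7 genes fell in both, without moderation 7 fell in 5637 alone, and 0 of the 11 in 5637 alone passed when a 2-fold difference was asked for as well.

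Of 46 measured replication genes, 14 rose in VM-CUB1 alone (against 9.78% of all genes) and 7 fell there alone (against 8.75%). A further 4 fell in both, 5 were opposite and 1 rose in 5637 alone. In VM-CUB1 17 of the 46 rose and 15 fell, with a median effect of -0.01. TYMS, thymidylate synthase, rose in VM-CUB1 alone. Values of 0.63, 0.54 and 0.57 with HOTAIR and -0.64, -0.54 and -0.61 with vector were measured in VM-CUB1, and of -0.02, 0.01 and -0.01 with HOTAIR and 0.04, 0.02 and -0.03 with vector in 5637. The 5637 groups overlapped, and the difference was 1.20 ± 0.07 (adjusted p = 7.2e-09). The helicase subunits were uneven, since MCM7 fell in VM-CUB1 alone (-1.12 ± 0.05) and MCM4 fell in both (-0.31 ± 0.05 and -0.63 ± 0.05). ORC2, of the origin recognition complex, was opposite (1.73 ± 0.10 and -0.82 ± 0.05). Of the 14 that rose in VM-CUB1 alone, 1 passed when a 2-fold difference was asked for as well.

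Of 29 measured cyclins, kinases and factors of G1 and S phase, the difference was higher in VM-CUB1 for 6 and lower for 11. Cell cycle inhibitors and antiproliferative genes leaned further to 1 side. Of 24 measured, the difference was called for 19, 5 higher and 14 lower in VM-CUB1, with a median of -0.62. In VM-CUB1 9 of them rose and 12 fell, and in 5637 10 rose and 1 fell. Cyclin D1 (CCND1), of early G1, was opposite (-1.34 ± 0.08 and 0.99 ± 0.12), although its rise in 5637 was not called without moderation, and cyclin E2 (CCNE2) was opposite in the other direction (1.39 ± 0.06 and -0.51 ± 0.05). CDKN1C, a kinase inhibitor, rose in both but more in 5637 (0.81 ± 0.09 and 4.03 ± 0.15, adjusted p of the difference 1.35e-08), and CDKN2A, the inhibitor of cyclin D kinases, fell in VM-CUB1 alone (-1.53 ± 0.06 against -0.01 ± 0.06). Of 54 measured cytosolic ribosomal proteins, 10 rose in VM-CUB1 alone, 11 fell in 5637 alone and 5 rose in VM-CUB1 and fell in 5637. Their difference was higher in VM-CUB1 for 30 and lower for 2, with a median of 0.25, and RPL27A was opposite with 2.82 ± 0.12 and -1.20 ± 0.07.

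Notch signalling passes between touching cells, and its called genes changed in 1 line at a time. Of 28 measured, 4 rose and 7 fell in VM-CUB1 alone (against 9.78% and 8.75% of all genes), and 1 rose in 5637 alone. Another 1 was called in 1 line without a called difference, and 2 had a called difference but no call in either line. Of the 28, 0 were alike or opposite, against 10.6% and 8.26% of all genes. The difference was called for 50%, against 42% of all genes. The ligand JAG2 fell in VM-CUB1 alone. In VM-CUB1 it was at -1.38, -1.98 and -1.68 with HOTAIR and at 1.64, 1.46 and 1.38 with vector, and in 5637 at -0.02, 0.06 and 0.17 with HOTAIR and at -0.07, 0.02 and -0.27 with vector. The VM-CUB1 groups were separate, and the difference was -3.35 ± 0.18 (adjusted p = 4.38e-09). DLL3, another ligand, rose in VM-CUB1 alone (1.75 ± 0.17 against -0.11 ± 0.06), and DTX4, a ubiquitin ligase of the pathway, rose in 5637 alone (0.98 ± 0.06 against -0.29 ± 0.11). With a replicate block within each line, 4 Notch genes fell in VM-CUB1 alone. NUMB, which rose in VM-CUB1 alone, was opposite with that block and without the third vector array of 5637.

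Of 40 measured WNT genes, 7 were opposite, 2 rose in both, 9 changed in VM-CUB1 alone and 6 in 5637 alone. Over all genes 8.26% were opposite, 5.56% rose in both, 18.5% changed in VM-CUB1 alone and 7.97% in 5637 alone. The ligand WNT7A was opposite (-1.92 ± 0.09 and 1.18 ± 0.06), the ligand WNT5B and the receptor FZD2 rose in VM-CUB1 alone (2.44 ± 0.09 and 2.72 ± 0.13), and the secreted antagonist SFRP1 fell in 5637 alone (-1.59 ± 0.05 against -0.02 ± 0.07). Growth factor genes of the ERBB group had 6 alike and 4 opposite members of 16. The ligands NRG1 and NRG4 fell in both (-2.25 ± 0.06 and -2.63 ± 0.12 in VM-CUB1, -0.80 ± 0.07 and -0.76 ± 0.10 in 5637). LRIG1, which marks ERBB receptors for degradation, rose in both by 1.51 ± 0.11 and 1.61 ± 0.09, with an interval of the difference from -0.43 to 0.23. The fall of NRG4 in 5637 was not called without moderation.

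Matrix and adhesion receptors moved in several ways. Of 29 laminins, hemidesmosome genes and integrins, 6 fell in both, among them integrin beta 4 (ITGB4), which anchors cells to the basement membrane (-2.04 ± 0.05 and -0.55 ± 0.07), and plectin (PLEC), which ties it to keratin (-0.52 ± 0.05 and -1.11 ± 0.07). Integrin alpha 1 (ITGA1), a collagen receptor, was opposite (-0.84 ± 0.10 and 2.15 ± 0.20), and the laminin chain LAMB3 fell in VM-CUB1 alone (-2.15 ± 0.06 against -0.06 ± 0.12). The collagen chain COL6A1 was opposite (1.08 ± 0.05 and -1.08 ± 0.05), and serglycin (SRGN), a secreted proteoglycan, rose in VM-CUB1 alone (9.98 ± 0.07 against -0.03 ± 0.16). Of the plasminogen system, the activator PLAU was opposite (-1.16 ± 0.09 and 1.07 ± 0.05) while its receptor PLAUR rose in both (3.05 ± 0.07 and 1.37 ± 0.06). Among guidance genes, the semaphorin receptor NRP1 rose in VM-CUB1 alone (1.57 ± 0.06 against 0.21 ± 0.06), and the repellent cue SLIT2 rose in both (3.07 ± 0.11 and 0.81 ± 0.09).

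ANKRD1, a nuclear ankyrin-repeat protein and target of the coactivators YAP and TAZ, rose by 7.08 ± 0.14 in VM-CUB1 and 1.46 ± 0.06 in 5637. Its promoter is shown because CATTCC, the site of their partners the TEAD factors, occurs in it more than once. It is the 250 bases before the start (RefSeq, GRCh38.p14), and capitals mark CATTCC or its reverse complement.
ANKRD1, rose in both lines, chr10:90921088-90921337, minus strand: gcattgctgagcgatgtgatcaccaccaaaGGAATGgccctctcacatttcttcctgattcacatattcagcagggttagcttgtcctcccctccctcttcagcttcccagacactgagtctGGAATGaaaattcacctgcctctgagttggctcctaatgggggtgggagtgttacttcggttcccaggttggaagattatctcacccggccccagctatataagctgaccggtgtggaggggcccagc
The letters occur 2 times in this stretch. In promoters of 300 bases they were in 11 of 21 matched genes of the YAP/TAZ list (52.4%, exact 95% interval 29.8 to 74.3%) against 15.5% of all genes. Of the 27 measured genes of that list, 3 rose in both, 7 were opposite, 6 changed in VM-CUB1 alone and 4 in 5637 alone.

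Retinoic acid genes had 4 opposite members of 18, all lower in VM-CUB1, among them DHRS3, which reduces retinal (-1.72 ± 0.07 and 0.43 ± 0.07, the latter not called without moderation), and the retinol importer STRA6 (-0.86 ± 0.07 and 0.55 ± 0.06). The 16 measured hair keratins and their associated proteins had 4 called differences (25.0%, against 42% of all genes). Of 56 respiratory chain subunits 8 were alike and 3 opposite (14.3% and 5.36%, against 10.6% and 8.26% of all genes). Their median effect was -0.06 in VM-CUB1 and -0.01 in 5637.

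**Figure D4:**
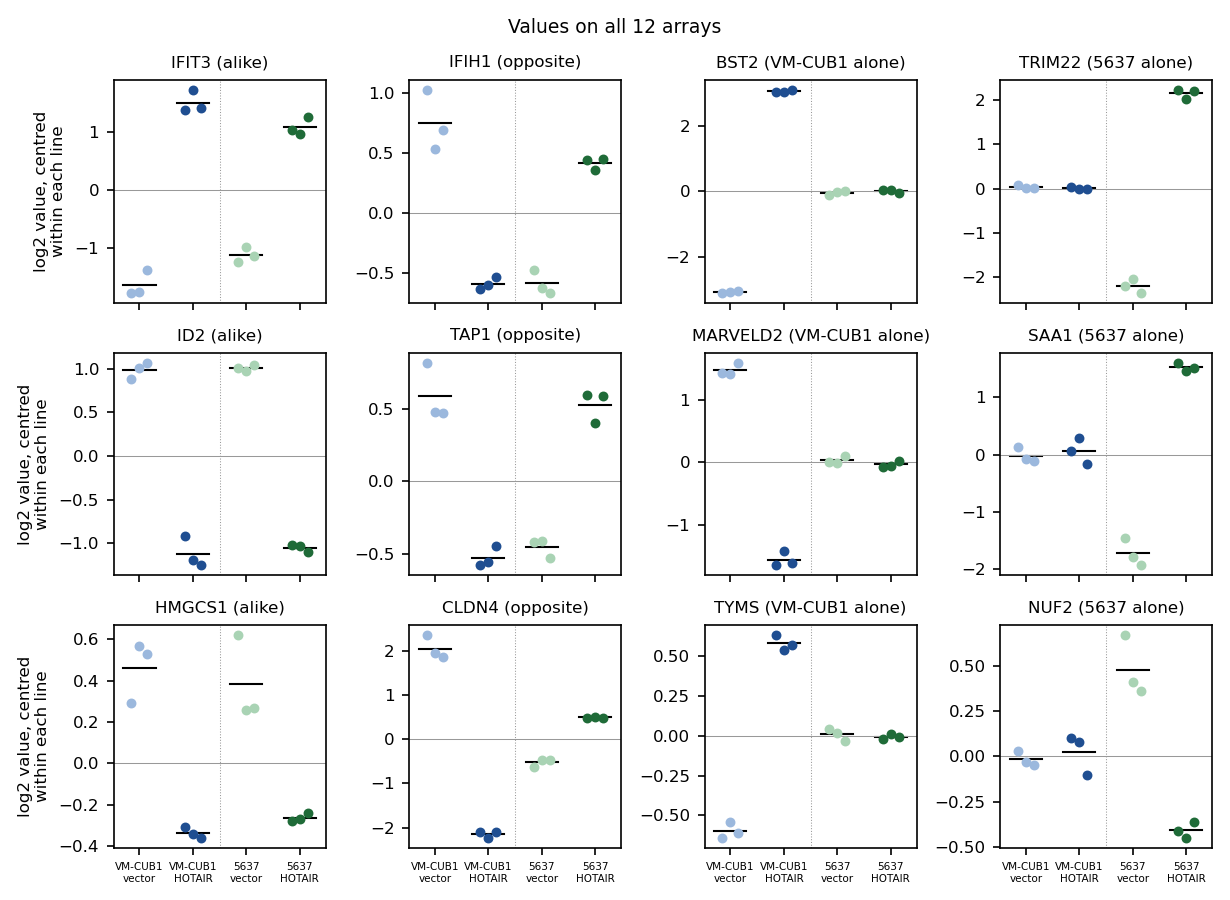
Centred log2 values (vertical axis) of 12 genes on all 12 arrays, with 3 points for each group (horizontal axis: vector and HOTAIR in VM-CUB1, then in 5637) and a bar at the group mean. The columns hold genes that moved alike, in opposite directions, in VM-CUB1 alone and in 5637 alone.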

How the data were processed

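RNA of 12 samples was hybridised to Affymetrix PrimeView 3′ arrays, 3 for each of 4 groups. The authors deposited log2 values made with GeneSpring GX, after RMA summarization (version not given in the sources used here) and a median baseline. In the deposited values each probe set was centred over the 6 arrays of its own line, so that levels and low signals could not be assessed and no filter on signal was applied. The source field of 4 of the 5637 arrays gives another line number, and title and cell line label were followed. The platform annotation paired 44988 of 49395 probe sets with a single symbol, and these were averaged per gene to 18132 genes, while 1832 probe sets with several symbols and 2473 without a symbol stayed out.

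Effects, differences and 95% intervals were fitted with limma 3.58.1 in R 4.3.3 (lmFit, contrasts.fit, eBayes), the difference over all 12 arrays and the effect of each line over its 6 arrays. Two-sided p-values were adjusted by Benjamini-Hochberg over all genes, with a threshold of 0.01 as in the study's methods. The fit was tested on simulated data with known differences. Gene lists were drawn from textbook functions and described by counts and medians without a set test. Some genes stand on more than 1 list. The comparison, the lists and their members were chosen with earlier results of these data known. Genes were named from the largest lesser effect among alike and opposite genes and the largest difference among genes of 1 line alone, over all genes and in each list. Alternatives were the median of probe sets, unique probe sets, replicate blocks, no moderation, a robust prior, array weights, array centring, quantile normalization, 1 fit of all arrays, other thresholds and leaving out each array. HOTAIR itself was not analysed here. The number of arrays limits the precision.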

Additional observations from a re-analysis of the deposited data

Results flagged for a closer look

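The test of the difference itself marked 7614 genes, 42% of those tested, whose HOTAIR effect differed between VM-CUB1 and 5637 (limma, adjusted p under 0.01). Of the genes called in both lines, 1497 changed in opposite directions. Each line was represented by 1 HOTAIR clone and 1 vector control, so that within a line HOTAIR and the clone cannot be told apart. Between the lines, the line and the clone cannot be told apart either.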

How the results depend on the processing

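Leaving out each array in turn gave 7123 to 7600 called differences (3715 to 4030 higher and 3408 to 3570 lower in VM-CUB1), 1517 to 1894 alike and 1183 to 1432 opposite genes, and 3011 to 3682 genes for VM-CUB1 alone and 1151 to 1588 for 5637 alone. For the 11 mitosis genes that fell in both lines this range was 7 to 11, with 7 without the first HOTAIR array of VM-CUB1. A 2-fold minimum left 2660 differences, 1173 higher and 1487 lower, with 991 genes for VM-CUB1 alone and 278 for 5637 alone. It left 5 desmosome and 4 Notch genes that fell in VM-CUB1 alone, 1 replication gene that rose there alone, and 0 mitosis genes that fell in 5637 alone. Without moderation of the variances 1132 genes were alike and 841 opposite, and the list counts became 9 alike and 4 opposite antiviral genes, 5 alike gp130 genes, 3 opposite TNF superfamily genes, 0 opposite HOXC genes, 7 mitosis genes that fell in 5637 alone and 5 alike cholesterol genes. At an adjusted p under 0.05, 2288 genes were opposite, and 20 mitosis and 14 cholesterol genes fell in both. Without probe sets that may hit several genes, 9 antiviral genes rose in both. In 1 fit of all arrays 2 HOXC genes were opposite. The core of the interferon element was in 52.6% of MHC class I promoters when the 250 bases before the start were searched. Where a count moved in other ways than by fewer genes or arrays, the cause was not tested.

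Replicate numbers did not pair the samples, since deviations of same-numbered HOTAIR and vector arrays correlated at 0.08, -0.01 and -0.03 in 5637 and -0.04, -0.05 and -0.003 in VM-CUB1. A replicate block gave 7078 differences within each line and 7384 over all arrays. With the block within each line 4 TNF superfamily genes were opposite and 4 Notch genes fell in VM-CUB1 alone, and with the replicate block over all arrays 2 HOXC genes were opposite.

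Apart from the 2-fold minimum, each alternative called between 91.4% and 100% of those called differences whose genes it measured. The sign of the difference changed for 53 of these genes without probe sets that may hit several genes, 14 with the median of probe sets and 5 with quantile normalization, and for 0 under the other alternatives. Some named differences moved by over 1.5 times with the same sign. Without probe sets that may hit several genes they were 0.91 for COL6A1, 1.83 for DLX1, -1.87 for GDF15, -0.65 for KLK10, 0.66 for NRP1, 0.94 for SFRP1, -0.78 for STRA6 and 0.71 for ZEB2. The median of probe sets gave -0.92 for ITGB4, -0.91 for NRG1 and 0.68 for NRP1. Quantile normalization gave -0.41 for HOXB2, -0.20 for IDI1, 1.48 for IFIT3, 1.19 for ISG20, -0.20 for ME1 (no longer called), 1.03 for PLEC, -0.32 for SCD and 2.37 for SFRP1. The spread between preparations and the number of arrays limit all calls, and small effects in 5637 carry many of the opposite ones.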
